A study of Drosophila melanogaster with 4 samples.

Results

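The genes of the dosage compensation complex of Drosophila melanogaster were followed by cap analysis of gene expression (CAGE), which marks the 5' ends of capped RNAs, in testes with and without knockdown of kmg. The set held 7 genes, namely the protein genes msl-1, msl-2, msl-3, mle and mof and the noncoding RNA genes lncRNA:roX1 and lncRNA:roX2, named by their known roles and not by any measured value. The choice was made with earlier results of these data known. Tags, the mapped 5' ends, came grouped in clusters. A cluster was counted for a gene when its position with the most tags lay on the same strand within the annotated gene, or within 100 bp of one of its annotated transcription start sites (TSSs). All 7 were measured, of 12864 genes measured in the series. They took 17 of the 32731 clusters of the Control table and 24 of the 57330 clusters of the knockdown table.

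Both groups carried bamGAL4, a driver active in late spermatogonia. The Control males had the genotype bamGAL4 and the knockdown males had bamGAL4/ KmgRNAi. In both, crosses were held for 3 days at 25 °C, the progeny were raised at 29 °C, and testes were taken from males 0 to 2 days old. Each group had 2 libraries, each from 10 µg of RNA of 150 pairs of testes, so every value is an average over many animals and over all cell types of the organ.

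The dosage compensation complex raises transcription of the single X chromosome of males. MSL1 and MSL2 form its core, MSL3 reads a methyl mark on active genes, MOF acetylates histones, and the helicase MLE remodels the roX RNAs so that they join the complex. In somatic cells the roX RNAs are made from the X itself and the complex coats it. In male germ cells, by contrast, the MSL proteins are not found coating the X, and a testis holds germ cells together with somatic cells.

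Each table gave 1 pooled value per group. There was therefore no replicate spread and no test, and every difference below compares 2 pooled values. Levels are given per 1000000 clustered tags of a group (TPM), out of 56519714 tags in Control and 34975246 in the knockdown. The Control was read at 76 bp and the knockdown at 150 bp, so read length and genotype cannot be told apart. The change was log2((knockdown + 1) / (Control + 1)), in TPM, and a gene or cluster was called higher at 2 or above and lower at -2 or below (4-fold). This scale understates changes of low values. All intervals are 95% and cover counting error only. The median change of all measured genes was 0.67. It was 0.01 after dividing the knockdown by 1.64, the median ratio of clusters called in both groups. Values after this step are called rescaled. At annotated TSSs alone the median was -0.05 without this step. Because rescaling lowers every knockdown value, a typical gene lies below 0 there after it, and rescaled falls at annotated TSSs are not particular to the members. The knocked-down gene itself, kmg, stood at 48.5 (Control) and 12.7 TPM (knockdown), a change of -1.86 (-2.50 rescaled).

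In the knockdown, msl-1, msl-2, msl-3 and mof differed from mle and the roX genes in where their RNAs began. Start clusters inside the first 4 passed the 4-fold rule, mostly in coding exons. No cluster of mle, roX1 or roX2 passed it, and their dominant starts were at the positions used in Control. A cluster called higher off annotated TSSs was present in 41.1% of all measured genes, so having or lacking one is common. The largest internal clusters of msl-3 and mof were already called at a low level in Control, whereas those of msl-1 and msl-2 were called in the knockdown alone. Summed over the 5 protein genes, clusters away from annotated TSSs held 6.17 TPM in the 5 called in Control (259 bp, 1.23 TPM per cluster) and 123 TPM in the 13 called in the knockdown (682 bp, 9.46 TPM per cluster). Clusters were called in each group separately and 8 of the 13 had no Control call, so these sums move with the calling and no ratio is given. The 5 clusters called in both groups, most of them in msl-3, held 6.17 and 76.7 TPM. At annotated TSSs the same genes held 47.1 and 57.6 TPM, a ratio of 1.22 (1.15 to 1.30) that turned below 1 on rescaling, to 0.745, and that was above 1 through mof, since the other 4 genes together gave 0.567. The 2 roX genes together held 123 TPM in each group, a ratio of 0.997 (0.960 to 1.04), or 0.608 rescaled.

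**Figure D1:**
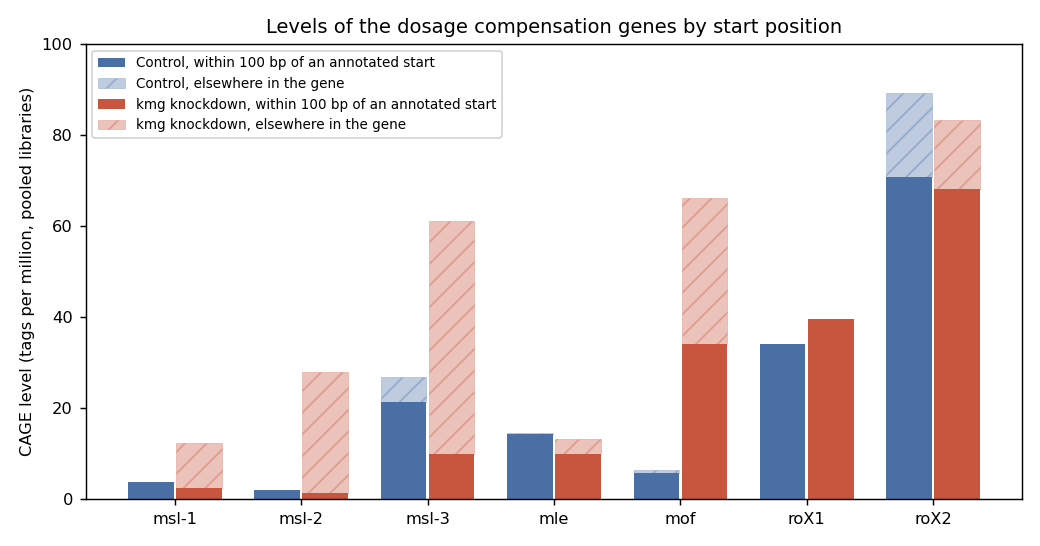
Bars give the level of each gene in TPM in the pooled Control (blue) and kmg knockdown (red) libraries. Solid parts are tags within 100 bp of an annotated start and hatched parts are tags elsewhere in the gene, which make up most of the knockdown bars of msl-1, msl-2 and msl-3 and none of either roX1 bar; there are no error bars because each group has 1 pooled value.

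As a sum over all its clusters, 2 of the 7 genes were called higher, msl-2 and mof, and 0 were called lower. Of all measured genes, 21.3% were called higher and 5.42% lower, so the count of the members is near the background. The members' median change was 1.16 (0.46 rescaled). With clusters at annotated TSSs alone, 1 of 7 was higher, mof, and 0 were lower, where 7.71% of 10921 genes were higher and 9.53% lower. The members' median was then -0.40, beside -0.05 over all genes. A cluster called higher (gained) away from annotated TSSs was present in 4 of the 7 genes, and in 41.1% of all measured genes. This share too is not particular to the members.

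Taken cluster by cluster, the members had 25 start clusters, of which 20 were in the consensus list and reached 1 TPM in either group. Of these 20, 8 were gained and 0 were lost, against 33.1% gained and 3.61% lost among all 43134 consensus clusters tested. All 8 gained clusters lay in the protein genes. There were 7 off annotated TSSs, 5 of them in coding exons, and 1 at an annotated TSS. After rescaling 4 of the 8 still passed, 1 each in msl-1, msl-2, msl-3 and mof. The farthest cluster counted as at a TSS lay 76 bp from one, and the nearest cluster counted as off a TSS lay 202 bp from one, so the 100 bp window split no close group of clusters.

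The order of the genes by level differed between the groups. CAGE gives 1 tag per RNA 5' end, so these levels were not corrected for gene length. They are sums over all clusters of a gene, however, and a longer gene has more room for internal starts. Internal starts made up most of the knockdown level of msl-1, msl-2 and msl-3. In Control the order of levels was roX2 at 89.1 TPM, roX1 at 34.0, msl-3 at 26.7, mle at 14.5, mof at 6.28, msl-1 at 3.77 and msl-2 at 1.98 TPM, and no counting intervals of neighbours overlapped. In the knockdown it was roX2 at 83.3 TPM, mof at 66.0, msl-3 at 61.0, roX1 at 39.5, msl-2 at 27.8, mle at 13.3 and msl-1 at 12.3 TPM. There the intervals of mof (63.4 to 68.8 TPM) and msl-3 (58.5 to 63.7 TPM) overlapped, as did those of mle (12.1 to 14.5 TPM) and msl-1 (11.2 to 13.5 TPM). At annotated TSSs alone mof also moved past others, from below msl-3 and mle in Control (5.79, 21.4 and 14.2 TPM) to above both in the knockdown (34.1, 9.89 and 9.84 TPM).

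The gene msl-2 encodes the subunit made in males alone, since Sex-lethal blocks its translation in females. It lies on chromosome 2L from 3462218 to 3466112 on the minus strand (FBgn0005616). Its clusters summed to 112 tags in Control, 1.98 TPM, and 974 tags in the knockdown, 27.8 TPM, a ratio of 14.1 (11.5 to 17.2) and a change of 3.27 (2.59 rescaled). This placed it at percentile 91.2 of all measured genes. Nearly all of the knockdown level came from 1 cluster from 3464626 to 3464730, with 930 tags over 23 positions, 26.6 TPM, and 0 Control tags. That is at least 501-fold higher, against a floor of 3 tags over the Control group (0.0531 TPM). Its dominant position lay 1429 bp into the gene, in a coding exon, at codon 319 of 773. It was a broad cluster, with an interquantile width (the distance holding the central tags) of 75 bp and 14.1% of its tags at the dominant position.

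At the annotated promoter msl-2 was low in both groups. The cluster from 3466087 to 3466108 had 44 tags in each, 0.778 (Control) and 1.26 TPM (knockdown), and was not in the consensus list. A single position at 3466036, in the stretch that the transcript msl-2-RB removes as an intron and msl-2-RA keeps, had 68 tags in Control (1.20 TPM) and no called cluster in the knockdown. The consensus list held 13 more tags there than the called clusters, so the Control level was at least 3.24-fold higher. Together the promoter held 4.52% (3.38 to 6.01, Wilson) of the gene's knockdown tags, and 100% (96.7 to 100) of its Control tags.

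The gene ND-PDSW, a subunit of mitochondrial complex I, starts 44 bp away on the opposite strand. Its promoter was strong in both groups, at 180 (Control) and 238 TPM (knockdown), a change of 0.40. The low msl-2 promoter and this high neighbour thus share one short stretch of the genome.

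Starts against the direction of the gene were also seen in msl-2. In the knockdown 5 clusters lay antisense within the gene, between 630 and 2651 bp from its 5' end, with 380 tags or 10.9 TPM in all. The highest, from 3465482 to 3465510, held 126 tags (3.60 TPM), and the next, from 3463437 to 3463470, held 110 tags (3.15 TPM). No antisense cluster was called in msl-2 in Control, and none in either group in the other 6 genes. Among all measured genes, 20.8% had antisense clusters in the knockdown and none in Control, so 1 gene of 7 is not above that background.

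The gene msl-1 encodes the scaffold that binds MSL2, MSL3 and MOF. It lies on 2L from 18683720 to 18688800, minus strand (FBgn0005617). Its sum was 213 tags (3.77 TPM) in Control and 430 tags (12.3 TPM) in the knockdown, a ratio of 3.26 (2.76 to 3.86) and a change of 1.48 that did not pass the rule (0.83 rescaled). All Control tags lay in the promoter cluster from 18688734 to 18688843, which held 86 tags (2.46 TPM) in the knockdown, a ratio of 0.652 (0.502 to 0.842). Within this cluster the dominant position lay 38 bp farther downstream in the knockdown, where it held only 19.8% of the 86 tags (33.8% in Control). The interquantile width was 56 bp in Control and 110 bp in the knockdown.

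The other msl-1 starts were called in the knockdown alone. The highest, from 18687924 to 18687953, had 198 tags (5.66 TPM) at codon 158 of 1039, at least 107-fold higher than the Control floor. A further gained cluster, from 18688410 to 18688476, had 111 tags (3.17 TPM), and its dominant position lay 7 bp before the start codon, at the end of the 5' UTR. It passed the rule at 2.06 but not after rescaling (1.55). Another, with 35 tags (1.00 TPM) at codon 196, did not pass. The promoter thus held 20.0% (16.5 to 24.0, Wilson) of the msl-1 tags in the knockdown.

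The gene msl-3 encodes the chromodomain protein of the complex and lies on 3L from 7123213 to 7125533, minus strand (FBgn0002775). It had the highest Control level of the protein genes, 1510 tags (26.7 TPM), and 2135 tags (61.0 TPM) in the knockdown. The ratio was 2.28 (2.14 to 2.44) and the change of 1.16 did not pass the rule (0.46 rescaled). This sum joined opposite shifts. The promoter cluster from 7125427 to 7125565 was at 21.4 (Control) and 9.89 TPM (knockdown), 2.16-fold lower (1.92 to 2.44), a change of -1.04 that did not pass (-1.67 rescaled).

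Inside msl-3, the cluster from 7124435 to 7124561 rose from 18 tags (0.318 TPM) to 1416 tags (40.5 TPM), 127-fold (80.1 to 215). It lay at codon 248 of 512 and became the strongest start of the gene, with 66.3% of its knockdown tags. A further gained cluster, from 7124176 to 7124189 at codon 336, had no called Control cluster and 160 knockdown tags (4.57 TPM), with 1 more tag there in the consensus list. It was at least 86.2-fold higher than the floor and missed the rule after rescaling (1.92). A cluster from 7125176 to 7125331 was used in both groups, at 4.90 and 5.12 TPM, a ratio of 1.04 (0.860 to 1.26). A small one at codon 188 held 6 tags (Control) and 34 tags (knockdown) and did not pass. In the shared cluster near the promoter the dominant position differed by 58 bp between the groups. The share of msl-3 tags at the annotated TSS was 80.1% (78.0 to 82.0) in Control and 16.2% (14.7 to 17.8) in the knockdown, both Wilson.

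The gene mof encodes the acetyltransferase of the complex, which also works in the NSL complex at promoters of many genes. It lies on the X from 5873840 to 5876853, minus strand (FBgn0014340), as a single exon. It rose from 355 tags (6.28 TPM) to 2310 tags (66.0 TPM), 10.5-fold (9.40 to 11.8), a change of 3.20 (2.50 rescaled). Unlike the other protein genes it was higher at its promoter as well as inside. The promoter cluster from 5876730 to 5876870 went from 327 tags (5.79 TPM) to 1194 tags (34.1 TPM), 5.90-fold (5.22 to 6.69), and its change of 2.37 passed the rule but not after rescaling (1.68). The dominant position in it lay 39 bp farther downstream in the knockdown, 27 bp before the start codon. It held 13.5% of the cluster's tags in Control and 16.4% in the knockdown. The width was 65 bp in Control and 63 bp in the knockdown.

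The second large mof start lay near the end of the reading frame, at codon 736 of 827, from 5874542 to 5874655. It rose from 28 tags (0.495 TPM) to 968 tags (27.7 TPM), 55.9-fold (38.4 to 84.5), with the same dominant position in both groups. A cluster in the 3' UTR, from 5874200 to 5874202, had 0 Control tags and 113 knockdown tags (3.23 TPM), at least 60.9-fold higher, but did not pass after rescaling (1.57). The last one, with 35 tags (1.00 TPM) at codon 66, did not pass. The promoter held 92.1% (88.8 to 94.5) of the mof tags in Control and 51.7% (49.6 to 53.7) in the knockdown, both Wilson.

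The gene mle encodes the helicase and, like mof, is also known from roles outside dosage compensation. It lies on 2R from 5974857 to 5980778, minus strand (FBgn0002774). Its sum was 822 tags (14.5 TPM) in Control and 464 tags (13.3 TPM) in the knockdown, a ratio of 0.912 (0.812 to 1.02) whose interval includes 1, and a change of -0.12 (-0.77 rescaled). It was the one protein gene with no gained cluster. The promoter cluster of mle-RA, from 5980734 to 5980820, had the same dominant position and the same width of 34 bp in both groups, at 14.2 and 9.84 TPM, a ratio of 0.693 (0.609 to 0.787).

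A small mle cluster at codon 68 of 1293, from 5980429 to 5980432, had 20 tags (0.354 TPM) in Control and 86 tags (2.46 TPM) in the knockdown, a ratio of 6.95 (4.23 to 11.9) whose change of 1.35 did not pass the rule. Another, with 34 knockdown tags (0.972 TPM), lay 228 bp upstream of the annotated start of mle-RC. No cluster lay within 100 bp of that start in either group. The promoter share was 97.6% (96.3 to 98.4) in Control and 74.1% (70.0 to 77.9) in the knockdown, both Wilson.

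**Figure D2:**
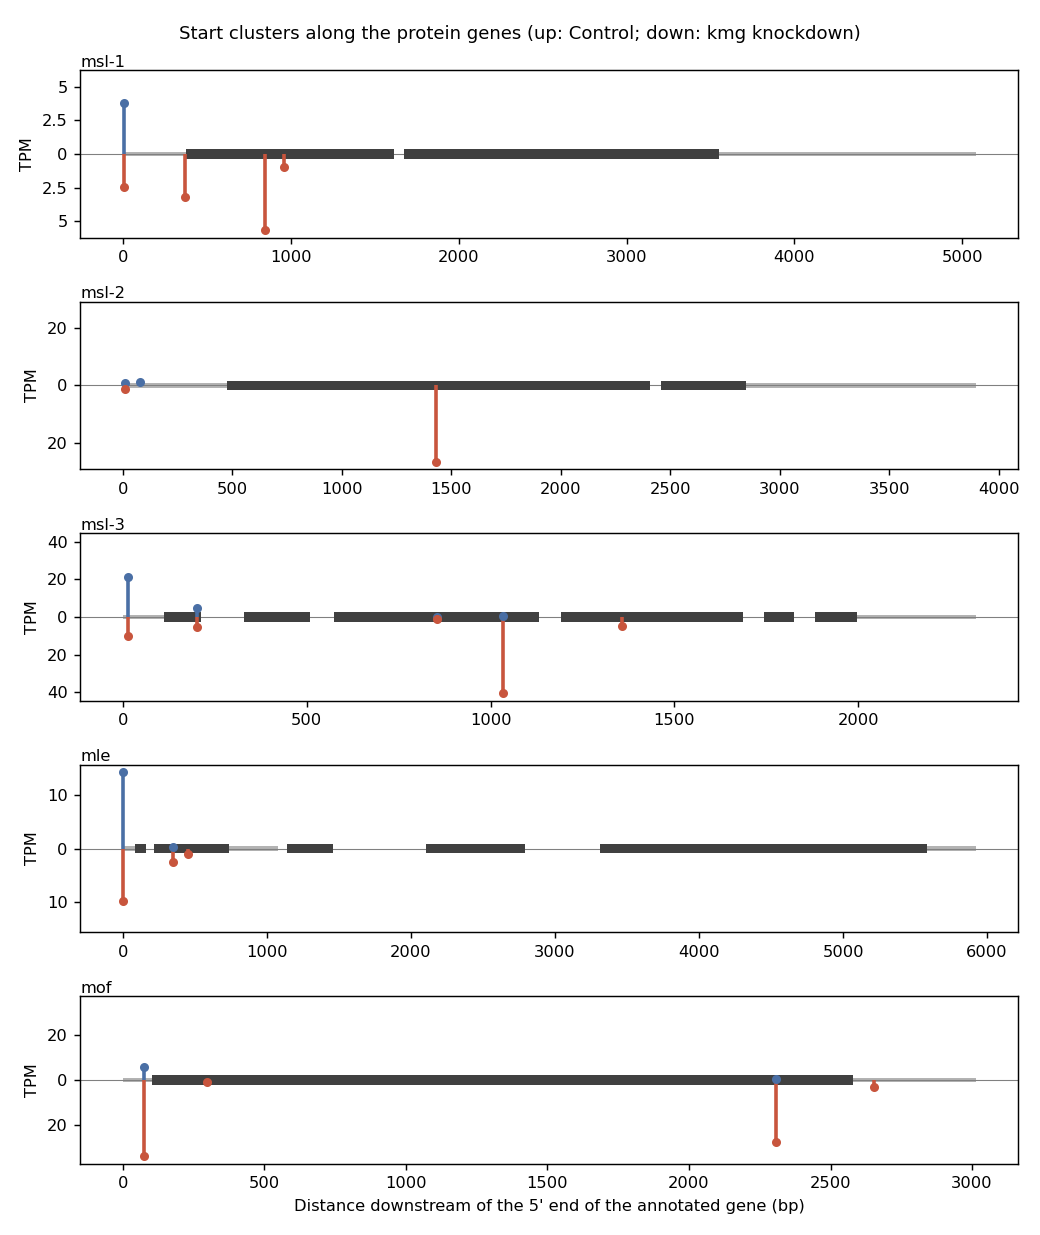
Start clusters are drawn along each protein gene by distance in bp from the 5' end of the annotated gene, at the dominant position of the group with the higher TPM, with Control levels in TPM upward (blue) and knockdown levels downward (red); black boxes are coding sequence and grey boxes are UTRs of all annotated transcripts. The tallest knockdown stem lies inside the coding sequence in msl-1 (5.66 TPM), msl-2 (26.6 TPM) and msl-3 (40.5 TPM), and at the promoter in mle (9.84 TPM) and mof (34.1 TPM); the vertical scale differs between genes.

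In msl-1, msl-2, msl-3 and mle together, promoter tags were at 41.3 (Control) and 23.4 TPM (knockdown), a ratio of 0.567 (0.523 to 0.614), and none of these promoters passed the 4-fold rule alone. This set leaves out mof, whose promoter level was higher, so the low ratio follows in part from that choice. Much of it was msl-3 (21.4 and 9.89 TPM). The promoter changes of msl-1, msl-2, msl-3 and mle lay at percentiles 36.6, 38.6, 22.1 and 35.8 of all genes measured at annotated TSSs. Off the annotated TSSs the same genes held 5.68 TPM in 4 clusters called in Control and 91.0 TPM in 10 called in the knockdown. For comparison, over the 11350 measured genes with tags in both groups, the median share of tags at annotated TSSs was 99.2% in Control and 77.9% in the knockdown. The shares of msl-1, msl-2, msl-3, mle and mof in the knockdown were all below that median. In Control msl-3 (80.1%), mof (92.1%) and mle (97.6%) were already below the Control median. The mean shares over the same genes were 80.8% in Control and 62.7% in the knockdown, and mle (74.1%) lay above the knockdown mean.

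The roX RNAs are long noncoding RNAs that can stand in for each other in the complex. The gene lncRNA:roX1 lies on the X from 3857230 to 3862697, minus strand (FBgn0019661). It had 1924 tags (34.0 TPM) in Control and 1382 tags (39.5 TPM) in the knockdown, a ratio of 1.16 (1.08 to 1.24) and a change of 0.21 that turned to -0.48 on rescaling. Its tags fell in 3 clusters, each within 19 bp of an annotated TSS, and each had the same dominant position in both groups. No tag cluster lay elsewhere in the gene in either group, so that 100% of tags (99.8 to 100 in Control and 99.7 to 100 in the knockdown, Wilson) were at annotated TSSs.

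The roX1 starts differed in their shares. The first, from 3862695 to 3862754, was at 14.2 (Control) and 10.5 TPM (knockdown), a ratio of 0.738 (0.650 to 0.836). The second, from 3862396 to 3862455 at the start of roX1-RB, was at 14.7 and 24.9 TPM, a ratio of 1.70 (1.54 to 1.87). Its change of 0.73 was 0.05 after rescaling, and none of the 3 passed the rule. The third, a narrow one from 3862054 to 3862057 at the start of roX1-RD and roX1-RE, was at 5.15 and 4.12 TPM. The second start thus took 43.1% of the gene's tags in Control and 63.0% in the knockdown, and the first took 41.8% and 26.6%.

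The gene lncRNA:roX2 lies on the X from 11579065 to 11580432, plus strand (FBgn0019660), and had the highest level of the members in both groups. It had 5037 tags (89.1 TPM) in Control and 2914 tags (83.3 TPM) in the knockdown, a ratio of 0.935 (0.893 to 0.979) and a change of -0.10 (-0.80 rescaled). Its promoter cluster, from 11579044 to 11579148, was at 70.7 and 68.1 TPM, a ratio of 0.962 (0.914 to 1.01), with 32 start positions in each group and the same dominant position.

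A second roX2 cluster, from 11579668 to 11579674, was at 17.1 (Control) and 11.3 TPM (knockdown), a ratio of 0.660 (0.586 to 0.743). It was nearly a single position, with 90.4% of its Control tags and 91.2% of its knockdown tags at 11579670. That position is the first base of the last exon in 5 of the 6 annotated roX2 transcripts. A minor cluster at 11579347 lay 282 bp into the gene and was at 1.24 and 3.92 TPM. Whether tags at that exon edge mark capped starts or other RNA ends was not tested.

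**Figure D3:**
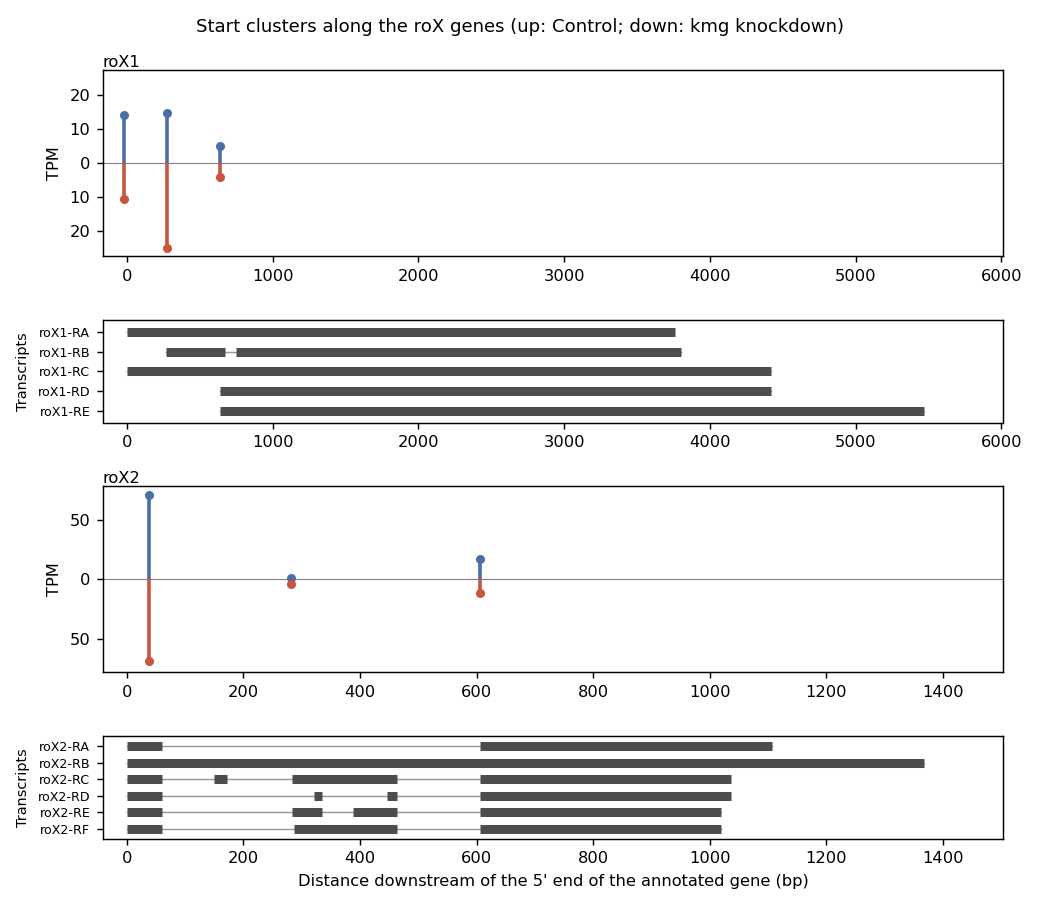
Start clusters along roX1 and roX2 are drawn by distance in bp from the 5' end of the annotated gene, with Control levels in TPM upward (blue) and knockdown levels downward (red), above the exons of each annotated transcript (dark bars). Each cluster is present in both groups: the second roX1 start is at 14.7 and 24.9 TPM, and the roX2 cluster at the edge of the last exon is at 17.1 and 11.3 TPM.

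Genes that recruit, regulate or work beside the complex were set next to the members. Of 16 such partner genes, all measured, 0 were called higher and 0 lower, with a median change of 0.54 beside 0.67 for all genes. At annotated TSSs their median was -0.26, and again none passed. JIL-1, a histone kinase enriched on the male X, was at 150 (Control) and 71.4 TPM (knockdown). Clamp, the zinc finger protein that brings the complex to the X, was at 41.6 and 58.4 TPM. Sxl, the female switch gene that represses msl-2, was at 4.03 and 4.86 TPM, and its cofactor Unr at 15.5 and 12.2 TPM. The levels at annotated TSSs were 150 and 59.3 TPM for JIL-1, 41.4 and 53.4 TPM for Clamp, and 14.4 and 4.40 TPM for Unr. All tags of Sxl lay there. A gained cluster off annotated TSSs was found in 13 of the 16, beside 41.1% of all genes, as a description of the list.

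Of the 6 genes of the NSL complex, which shares MOF, 1 was called higher, beside 21.3% of all genes, and 0 lower, with a median change of 1.31. The WD-repeat gene wds rose from 3.57 to 24.4 TPM, a change of 2.47 that missed the rule after rescaling (1.80), and was at 3.57 and 8.03 TPM at its annotated TSS. The scaffold gene nsl1 was at 31.7 and 75.7 TPM, Rcd1 at 19.8 and 68.2 TPM, and MBD-R2 at 32.0 and 45.6 TPM. Their levels at annotated TSSs were 13.1 and 10.1 TPM for nsl1, 17.8 and 17.4 TPM for Rcd1, and 31.7 and 34.8 TPM for MBD-R2. At annotated TSSs 0 of the 6 passed in either direction and the median was 0.05. Each of the 6 had a gained cluster off annotated TSSs, beside 41.1% of all genes, as a description of the list.

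**Figure D4:**
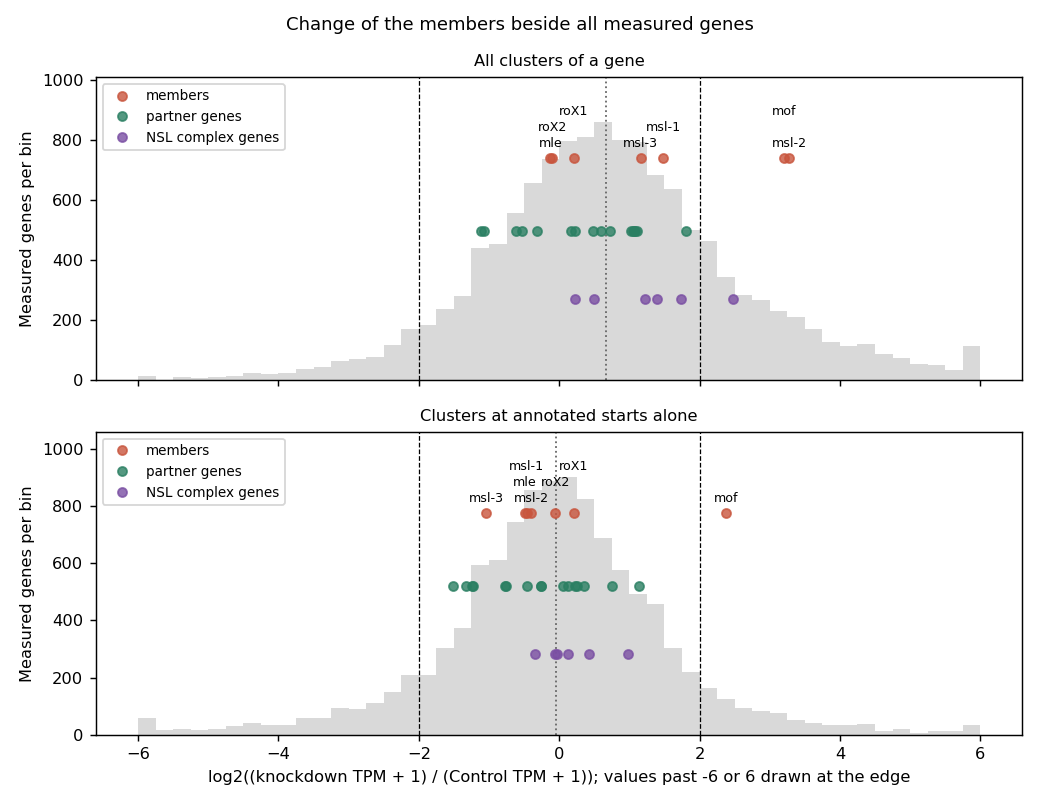
Grey bars count all measured genes by their change, log2((knockdown TPM + 1) / (Control TPM + 1)), for all clusters of a gene (top) and for clusters at annotated starts alone (bottom); coloured points are the members, the partner genes and the NSL complex genes, placed at arbitrary heights. Dashed lines mark the rule at -2 and 2 and dotted lines the median of all genes (0.67 and -0.05); msl-2 (3.27) and mof (3.20) lie past the rule on top, and mof (2.37) alone among the members at annotated starts.

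Marker genes of the cell types of a testis were measured in the same tables. In bulk tissue, fewer cells of a type and less RNA per cell cannot be told apart, and a marker's sum can also include starts away from its own promoter. The 12 spermatocyte and spermatid markers summed to 12582 TPM (Control) and 3844 TPM (knockdown), with 1 called higher and 4 lower. This sum was led by w-cup (7072 and 434 TPM) and dj (2978 and 569 TPM), and it was 5510 and 3409 TPM without w-cup. Of the 12 markers, 7 had a higher TPM in the knockdown, and the list's median change was 0.26. The 5 early germline markers summed to 80.3 and 149 TPM (1 higher, 0 lower), with a median change of 1.17, but 45.3 and 30.6 TPM at annotated TSSs, with a median of -0.59 there.

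Among somatic cells, where the complex is known to act, the 6 cyst cell markers summed to 82.0 and 173 TPM (1 higher, 0 lower). The increase lay in so (19.5 and 121 TPM), most of it off its annotated TSSs (9.38 and 88.5 TPM). The other 5 summed to 62.5 and 52.7 TPM, 4 of the 6 had a lower TPM in the knockdown, and the list's median change was -0.26. The 5 hub markers summed to 199 and 188 TPM (1 higher, 0 lower), and 151 and 49.7 TPM at annotated TSSs. Without CadN (7.87 and 50.4 TPM, none of it at an annotated TSS) the other 4 summed to 191 and 137 TPM. At annotated TSSs Fas3 (82.9 and 5.58 TPM) and shg (60.7 and 34.3 TPM) were lower in the knockdown. There upd1 (2.26 and 3.46 TPM) and hh (5.18 and 6.40 TPM) were higher. The 10 muscle markers summed to 1532 and 536 TPM (0 higher, 1 lower), and each had a lower TPM in the knockdown.

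For cells from outside the testis tube, 4 of 5 fat body markers were measured and the list summed to 289 and 142 TPM (0 higher, 1 lower), with Yp1 at 0 tags in both groups. Without Tsf1 (135 and 16.9 TPM) this list summed to 153 and 125 TPM. At annotated TSSs Lsp2 (0 and 1.80 TPM), Fbp1 (0.902 and 3.57 TPM) and Fbp2 (3.57 and 20.2 TPM) were higher in the knockdown. Tsf1 was lower there (133 and 16.9 TPM). Of 6 hemocyte markers 5 were measured, with sums of 152 and 135 TPM (1 higher, 2 lower) and NimC1 at 0 tags in both. Without srp (14.6 and 71.9 TPM) the list summed to 138 and 63.6 TPM. Of 8 accessory gland and ejaculatory bulb markers 6 were measured, with sums of 164 and 59.6 TPM (0 higher, 4 lower), and Ebp and EbpII at 0 tags in both. Most of that knockdown sum was Acp36DE off its annotated TSSs (2.87 and 53.1 TPM). At annotated TSSs the list summed to 161 and 6.46 TPM. The 6 neuron markers summed to 74.9 and 194 TPM (5 higher, 1 lower), with elav at 0 tags in Control. At annotated TSSs the neuron markers summed to 65.8 and 8.03 TPM, with brp at 0 TPM there in both groups. All of that Control level was nSyb (65.8 and 2.14 TPM there), the 1 marker called lower. Gad1 (0 and 4.09 TPM) and pros (0 and 1.80 TPM) were higher at their annotated TSSs in the knockdown. The part of these marker levels in the results on the members was not tested.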

How the data were processed

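CAGE libraries of testes were analysed from 3 deposited tables, which pool their libraries: the clusters called in Control, those called in the knockdown, and a joint consensus list. The submitters' processing notes name Trim Galore 0.6.6, STAR 2.7.11b, bedtools, BDGP6 and dm6 with no role for any of them, and the sources used here name no cluster caller. The column named TPM in the file headers held whole numbers, so the deposited values were taken as raw tag counts; the numbers of start positions are as deposited. The deposited interquantile width is in bp, between the 0.1 and 0.9 quantile positions. Tags were scaled to 1000000 per table. Gene models were those of Ensembl release 115 (dm6 coordinates), without transposable elements; a cluster counted for every gene that held it.

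Clusters of the groups were matched through the consensus list by overlap on the same strand, and those outside it by overlap with each other. Genes and clusters of at least 1 TPM in either group were measured. Ratios carry exact binomial, levels exact Poisson and shares Wilson intervals. For a count of 0 the floor was 3 tags, or the tags the consensus list held beyond the called clusters where these were more. The computation (Python 3.11.15, scipy 1.17.1) was tested on simulated data. All members were described, with their clusters, and of the partner and NSL lists the genes past the rule and up to 4 others each. Members and lists were chosen with earlier results of these data known. Likeness of pattern between genes was not computed, since each gene had 2 values. No sequence is shown because no genome was used here.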

Additional observations from a re-analysis of the deposited data

How the results depend on the processing

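The count of members called higher (2) and lower (0) was the same with a pseudocount of 0.5 or 3 TPM and after rescaling. A TSS window of 500 bp and clusters in 1 gene alone left every member's value unchanged. That window was applied to whole-gene sums, which already hold every cluster inside the gene, so it could add only clusters outside it. The split into clusters at and off annotated TSSs was not recomputed with it. At 500 bp, clusters such as those of msl-3 at 202 bp and msl-1 at 368 bp would count as at a TSS. Leaving out the filter on low values, or a filter of 5 TPM, could not move the count, since every member was at 12.3 TPM or more in the knockdown. The members' median change moved from 1.16 to 0.46 after rescaling. With annotated TSS clusters alone it was -0.40 and 1 member was higher. Taking each gene's strongest cluster it was 2.37 and 4 were higher, since msl-1 and msl-3 then passed through their internal starts. The strongest cluster was picked with the knockdown level in view, which favours clusters that are high there. The share of all genes called higher in this way is not given, so the count of 4 has no background beside it. Over the 9 alternatives, mof ranged from 2.37 to 3.29 and msl-2 from -0.40 to 4.79, missing the rule at annotated TSSs alone. The ranges were -0.46 to 2.74 for msl-1, -1.04 to 4.98 for msl-3, -0.77 to -0.11 for mle, -0.48 to 0.73 for roX1 and -0.80 to -0.05 for roX2.

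No paired analysis was possible because each table gives 1 pooled value per group, and for the same reason leaving out each library in turn was not possible. Depth limits the low clusters: 3 tags are 0.0531 (Control) or 0.0858 TPM (knockdown). Whether the knockdown's added starts would be called at a matched read length was not tested.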

Other observations

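The chromosome on which the complex acts can be set beside the autosomes as a description. The 1886 measured genes of the X had a median change of 0.56, and the 10886 genes of chromosomes 2 and 3 had 0.69. At annotated TSSs alone the medians were 0.07 over 1616 X genes and -0.06 over 9231 genes of these autosomes. A gained cluster off annotated TSSs was present in 29.6% of the X genes and 43.1% of the autosomal ones. These differences were not tested, since each group has 1 pooled value.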
